A study of Mus musculus with 12 samples.

Results

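Chemokines are small secreted proteins that direct the movement of leukocytes, and chemokine receptors are the receptors on those cells that sense them. The transcripts described here are the 63 rows, of 34986 in a liver RNA sequencing table, that the table lists as protein-coding and whose symbol begins with Ccl, Cxcl, Ccr or Cxcr and a number, or is Cx3cl1, Cx3cr1, Xcl1 or Xcr1. They were chosen by name and not by their values. Of these rows, 44 are for ligands and 19 for receptors. They carry 57 different symbols, because 7 rows lie on unplaced scaffolds and hold copies of the Ccl19, Ccl21 and Ccl27a genes. Cxcl11 matched by name but is listed as a polymorphic pseudogene, so it was not a member.

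The livers came from 12 female C57BL/6 mice aged 16 weeks. All 12 received valproic acid (VPA), a drug against epilepsy with known liver toxicity. Obeticholic acid (OCA), a synthetic bile acid and agonist of the bile acid receptor FXR, was given as well to 6 of them. The groups are written VPA and VPA_OCA, with n = 6 each, and the series title places the comparison within the question of what FXR does in liver injury by VPA. The labels used here give neither dose nor duration, and no group without VPA was analysed here, so the data speak only of OCA on top of VPA. Whole liver was sequenced, and in such samples fewer cells of a type and less RNA per cell cannot be told apart.

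Values are the authors' normalized counts, which are estimated read counts divided by a factor for each library, and they summed to between 20236900 and 22087711 per library. Estimated depth was 37766890 reads in VPA_OCA replicate 1 and 17879222 to 22021646 in the other libraries. In VPA_OCA replicate 1 a read stood for about 0.559 normalized counts, and in the others for 1.0 to 1.23. A transcript was called measurable when its normalized count was at least 1 in at least 6 of the 12 libraries. Means are given ± SD (n = 6 per group) and fold changes on the scale of log2(normalized count + 1), ± SE, which understates the change of low transcripts. The test was limma with Benjamini-Hochberg adjustment over all 19006 measurable genes, with a threshold of 0.05. All 6 hepatocyte markers were measurable, with Alb, which encodes albumin, at 2166170 ± 290774 in VPA.

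Chemokines are grouped by the spacing of the cysteines near their amino end into CC, CXC, CX3C and XC classes, and their receptors are G protein-coupled receptors that signal mainly through inhibitory G proteins. In liver, Kupffer cells, sinusoidal endothelial cells, stellate cells and hepatocytes all make chemokines, some at rest and some after injury or exposure to interferon or tumour necrosis factor. Inflammatory CXC chemokines such as CXCL1 recruit neutrophils through CXCR2, interferon-induced ones such as CXCL9 and CXCL10 recruit T cells through CXCR3, and CCL2 recruits monocytes through CCR2. Several of these genes are classical targets of the transcription factor NF-kB, and CXCL10 also carries an interferon-stimulated response element.

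Of the 63 members, 41 (65.1%) were measurable, 28 ligands and 13 receptors. At 0 in all 12 libraries were Ccl1, Ccl20, Ccl26, Ccl27b, Cxcl17 and Ccr8. A further 10 on chromosomes stayed under the measurable level, namely Ccl11, Ccl12, Ccl21b, Cxcl5, Cxcl15, Ccr3, Ccr4, Ccr10, Ccr1l1 and Cxcr1, as did 6 of the 7 scaffold copies. For a few ligand and receptor pairs only the receptor (CCR6 of CCL20) or only the ligands (CCL24 of CCR3, CCL17 and CCL22 of CCR4, CCL27 and CCL28 of CCR10) could therefore be followed. Of the measurable members, 23 had a mean normalized count of at least 10 over the 12 libraries, 18 lay under 10, and 9 reached 50.

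Per transcript length, in the authors' FPKM (a level corrected for transcript length and for library total), Cxcl12 had the highest mean level of the members at 97.8, followed by Ccl9 at 62.3. Ccl27a followed at 19.6, Cxcl9 at 9.47, Ccl6 at 7.52, Cxcl16 at 4.0 and Ccl25 at 3.01. Ccl5, Cxcl1, Cxcl10, Ccl24 and Ccl19 lay between 1.35 and 2.38. Cxcl12 and Ccl9 together made up 63.0% to 77.7% of the summed FPKM of the members in a library, with a median of 73.0%. The chemokine transcripts of these livers were thus mostly those of 1 homeostatic CXC ligand and 1 CC ligand of the macrophage inflammatory protein group.

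**Figure D1:**
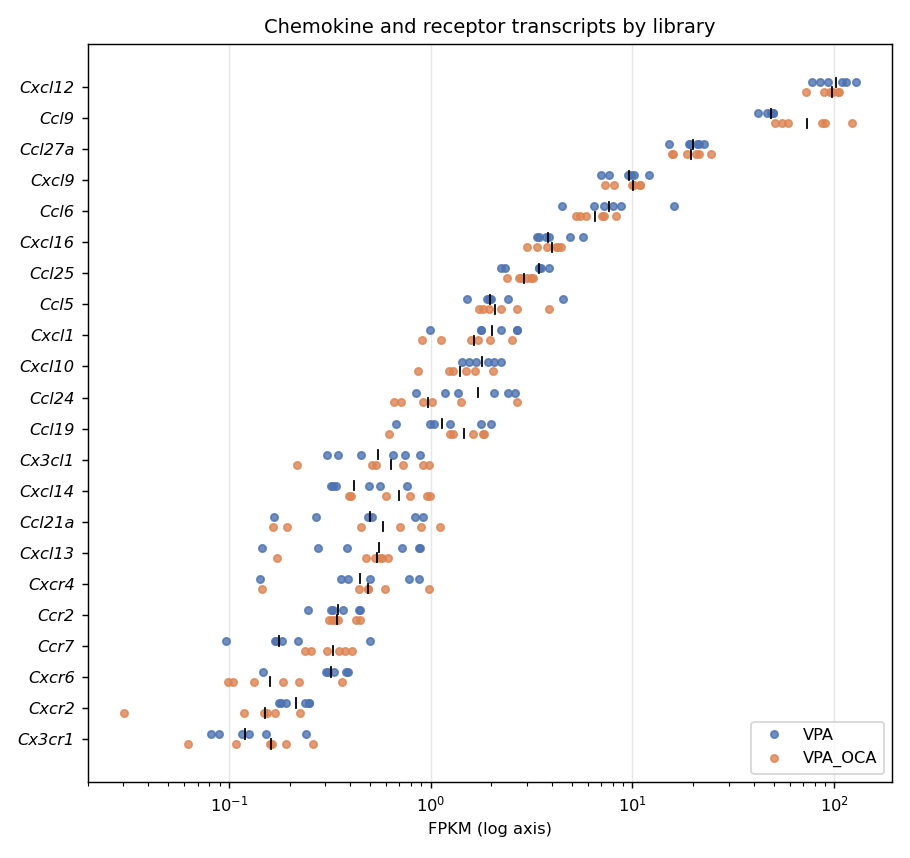
Level of 22 members with a mean normalized count of at least 10, in the authors' FPKM on a log axis, with 1 point for each of the 12 libraries, coloured by group, and a black tick at each group's median. Cxcl12 and Ccl9 stand highest, at means of 97.8 and 62.3 FPKM, and the receptors shown lie at means under 1 FPKM.

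Between VPA_OCA and VPA, 0 of the 41 measurable members passed the threshold by limma, where 137 of 19006 genes (0.721%) did, 84 higher (0.442%) and 53 lower (0.279%). The members' count of 0 is near that background. With a block for the replicate number 210 genes passed, and still 0 members. At an unadjusted p under 0.05 there were 2 members, Ccl9 and Cxcr6 (4.88% of 41), against 9.55% of all genes. Without the intensity trend or with weights for the libraries limma again called 0 members, with 4 at an unadjusted p under 0.05 in each. The groups did not overlap for 1 member, Ccl9 (2.44%), against 1.44% of all genes. The median log2 fold change of the members was 0.03, with 23 above 0 and 18 below, and that of all measurable genes was -0.0005, with 9488 above and 9518 below. Ligands had a median of 0.08 and receptors of -0.01.

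A p above the threshold does not show that levels were alike, and the 95% intervals give what these libraries could tell. For 20 of the 41 members the interval lay within a 2-fold change either way, among them 8 of the 9 with a mean of at least 50. For the other 21 a 2-fold change lay inside it, and 14 of those had means under 10. Only the intervals of Ccl9 and Cxcr6 left out 0.

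**Figure D2:**
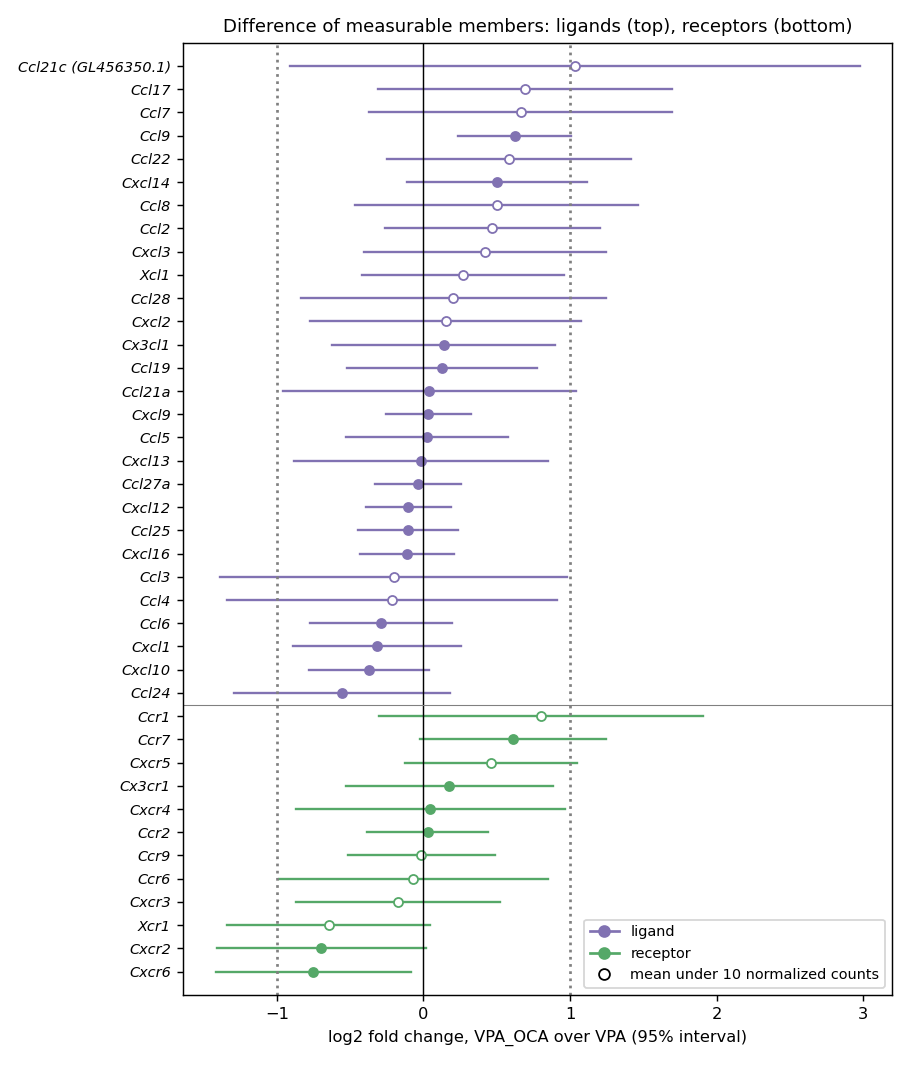
Log2 fold change of VPA_OCA over VPA for 40 measurable members on the scale of log2(normalized count + 1), with its 95% interval from limma. Ligands stand above receptors, each ordered by fold change, open points are members with a mean under 10, and dotted lines mark a 2-fold change. Only the intervals of Ccl9 and Cxcr6 do not cross 0, and neither passed the adjusted threshold over all genes.

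Ccl9 encodes a CC chemokine of rodents, also called MIP-1 gamma, that signals through CCR1 on myeloid cells. The gene (ENSMUSG00000019122) lies at chr11:83572919-83578636 on the minus strand in the authors' table (GRCm38). Its span ends 9246 bases before that of Ccl6, a related CC chemokine also called C10, at chr11:83587882-83593087. Both promoters are shown because Ccl9 is the member on which the comparison turns and Ccl6 is its abundant neighbour. They run from 250 bases before to 50 bases after the start site on the minus strand, 5′ to 3′, and come from RefSeq for GRCm38.p6, at chr11:83578587-83578886 for Ccl9 and chr11:83593038-83593337 for Ccl6. Capitals mark a match to the NF-kB consensus.
Ccl9 promoter: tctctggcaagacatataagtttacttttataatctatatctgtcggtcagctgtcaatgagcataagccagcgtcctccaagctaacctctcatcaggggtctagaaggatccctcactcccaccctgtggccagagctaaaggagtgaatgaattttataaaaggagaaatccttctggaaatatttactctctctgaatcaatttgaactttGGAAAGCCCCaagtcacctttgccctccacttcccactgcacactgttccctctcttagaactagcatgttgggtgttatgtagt
Ccl6 promoter: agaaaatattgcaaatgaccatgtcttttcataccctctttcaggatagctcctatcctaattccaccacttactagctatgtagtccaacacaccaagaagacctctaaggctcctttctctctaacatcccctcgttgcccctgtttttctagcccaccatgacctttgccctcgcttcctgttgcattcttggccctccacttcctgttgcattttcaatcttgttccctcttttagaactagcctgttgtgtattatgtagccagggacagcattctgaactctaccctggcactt
The Ccl9 window held 1 NF-kB match, 35 to 26 bases before the start, and the Ccl6 window none. Their longest exact shared run was 13 bases, starting 14 bases before the Ccl9 start and 55 before the Ccl6 start. Longer matches with mismatches were not searched for.

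Normalized counts of Ccl9 in VPA ran from 1522 to 1837 with a median of 1748, and in VPA_OCA from 1880 to 4563 with a median of 2571.5. Every VPA_OCA library thus lay above every VPA library. The means were 1729.8 ± 112 and 2801.0 ± 1029.6. On the log2 scale the fitted difference was 0.62 ± 0.18 (95% interval 0.24 to 1.01), which is 1.54-fold. By limma the unadjusted p was 0.00348 and the adjusted p 0.171, so the difference did not pass. Leaving out each library in turn gave log2 fold changes of 0.47 to 0.72 and adjusted p-values of 0.0983 to 0.319.

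The spread of Ccl9 in VPA_OCA followed the replicate numbers. VPA_OCA replicates 1, 2 and 3 had 3218, 4563 and 3035, and replicates 4, 5 and 6 had 1880, 2002 and 2108. The VPA libraries had 1837, 1709 and 1742 in replicates 1 to 3 and 1754, 1522 and 1815 in replicates 4 to 6, with the sets overlapping. Such a split between the sets was common, in 30.8% of all measurable genes within VPA and 32.3% within VPA_OCA. The labels do not say what the numbers stand for. Within replicates 1 to 3 the log2 fold change was 1.01 ± 0.15 and passed (limma, adjusted p = 0.0123), where 0.637% of all genes did. Within replicates 4 to 6 it was 0.24 ± 0.09 (adjusted p = 0.366). The difference of the 2 effects, -0.77 ± 0.19 on the log2 scale, did not pass over all genes (interaction term in limma, adjusted p = 0.316, where 0.0105% of all genes passed), and it was examined after the values were seen.

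With a term for replicates 1 to 3 against 4 to 6 in the fit, Ccl9 rose (adjusted p = 0.0226), the only member to pass, where 2.13% of all genes passed. This call was lost without VPA replicate 1, 2 or 3 or VPA_OCA replicate 1, with adjusted p-values of 0.0596, 0.0617, 0.0643 and 0.0569. Within replicates 1 to 3 it was lost without the same libraries, at 0.0647, 0.102, 0.148 and 0.117. With a block for the replicate number the adjusted p was 0.0773. The authors' deposited table comes from their own test and not from limma, and it gives an adjusted p for 12517 genes, 15 of them members. Of the 15, only that of Ccl9 is under 0.05 (log2 ratio 0.63, adjusted p = 0.001918 by the authors' test), while 5.57% of all genes with one are.

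The 10 Kupffer cell markers, all measurable, had a lowest, median and highest sum of 5065, 8256 and 14026 in VPA and 5543, 7665 and 9600.4 in VPA_OCA. In VPA_OCA replicates 1, 2 and 3, where Ccl9 was highest, they summed to 8846, 7370 and 5543, against 6860.0, 6835 and 5065 in VPA replicates 1, 2 and 3. Their median log2 fold change was 0.21 within replicates 1 to 3, where that of Ccl9 was 1.01, and -0.44 within replicates 4 to 6, and 0 of the 10 passed over all libraries. The part of cell numbers in the Ccl9 difference was not tested. Over the 12 libraries the transcripts most like Ccl9, among 10718 genes with a mean of at least 50, were Plscr2 (Pearson r = 0.948 of log2 values), Med10 (0.947) and Smarce1 (0.939). Plscr2 was at 639.95 ± 74.6 in VPA and 905 ± 271 in VPA_OCA. These are descriptions over 12 libraries that share treatment and number set.

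**Figure D3:**
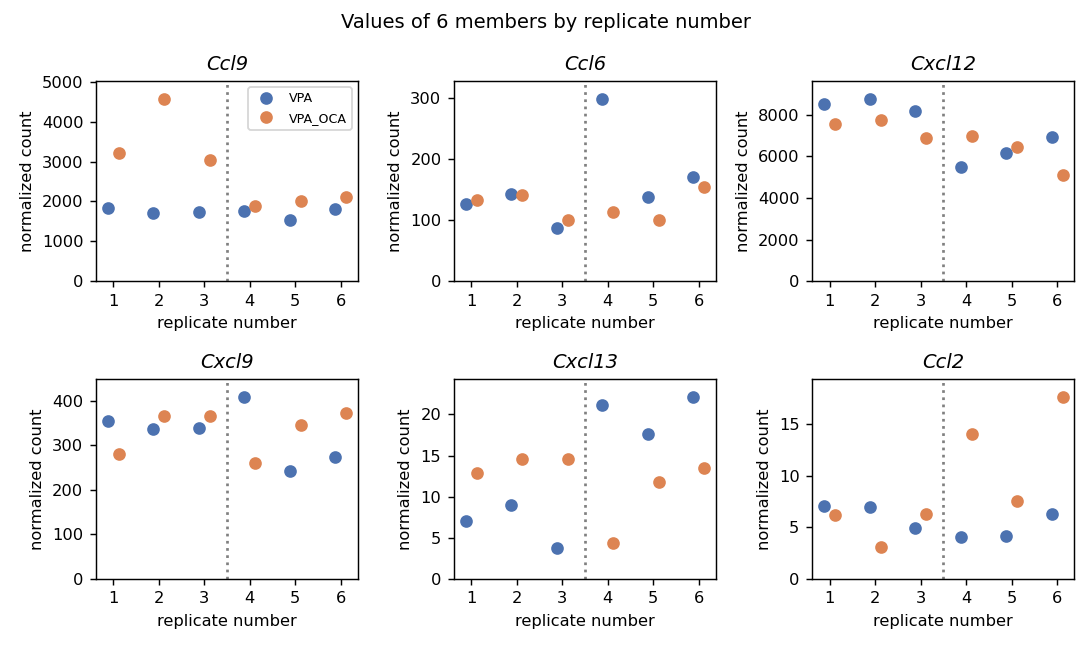
Normalized counts of 6 members (Ccl9, Ccl6, Cxcl12, Cxcl9, Cxcl13 and Ccl2) by replicate number on linear axes that start at 0, with 1 point for each library, coloured by group, and a dotted line between numbers 1 to 3 and 4 to 6. Ccl9 in VPA_OCA lies at 3035 to 4563 in numbers 1 to 3 and at 1880 to 2108 in numbers 4 to 6, while the VPA points stay between 1522 and 1837.

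Ccl6 encodes a chemokine of macrophages that also signals through CCR1. It ran from 87.3 to 297 in VPA, with a median of 140.1, and from 99.8 to 154 in VPA_OCA, with a median of 123. The groups overlapped, and the log2 fold change was -0.29 ± 0.23 (limma, adjusted p = 0.774). It was 0.08 ± 0.22 within replicates 1 to 3 and -0.66 ± 0.27 within replicates 4 to 6. VPA replicate 4 had the highest Ccl6 value of any library, and the same library had the highest sum of Kupffer cell markers. Its sums of monocyte, neutrophil, dendritic cell, T cell, NK cell, platelet and skeletal muscle markers were also the highest. Those of B cell, sinusoidal endothelial and stellate cell markers were highest in other libraries. Without that library the log2 fold change of Ccl6 was -0.09 (adjusted p = 0.932). The part of that library's cells in the Ccl6 value was not tested. Ccr1, the receptor of CCL9, CCL6, CCL3 and CCL5 on myeloid cells, was at most 7.26 in any library, with means of 1.43 ± 1.12 in VPA and 3.53 ± 2.61 in VPA_OCA (adjusted p = 0.703).

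Ccl5, Ccl3 and Ccl4 lie on the same stretch of chromosome 11 and encode ligands that attract T cells, NK cells and macrophages. Ccl5 stood at 30.5 ± 13.3 in VPA and 30.4 ± 10.1 in VPA_OCA (adjusted p = 0.992 by limma). Ccl3 and Ccl4 were near the limit of measurement, between 0 and 7.02 in every library.

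The CCL2 and CCR2 axis brings monocytes from blood into injured liver. Ccl2 was at 5.58 ± 1.38 in VPA and 9.12 ± 5.52 in VPA_OCA (log2 fold change 0.47 ± 0.35, adjusted p = 0.753 by limma). Within VPA_OCA it ran from 3.12 to 6.26 in replicates 1 to 3 and from 7.52 to 17.6 in replicates 4 to 6. Ccl7, a neighbouring gene whose product also binds CCR2, stayed at 0 to 5.19, and Ccl8, another neighbour, at 0 to 3.12. Ccr2 was at 28.0 ± 6.56 in VPA and 28.2 ± 4.44 in VPA_OCA (adjusted p = 0.986). Of the monocyte markers, 6 of 7 rows were measurable, 0 passed, and their summed level was 233 to 396 in VPA and 308 to 359 in VPA_OCA.

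Cxcl12 encodes the ligand that holds CXCR4-bearing cells in tissues, and in liver it is made by endothelial and stromal cells. It ran from 5477 to 8756 in VPA with a median of 7557, and from 5116 to 7773 in VPA_OCA with a median of 6930.5. The groups overlapped over most of their range (log2 fold change -0.10 ± 0.14, 95% interval -0.39 to 0.19, adjusted p = 0.887 by limma). In VPA, replicates 1 to 3 had 8166 to 8756 and replicates 4 to 6 had 5477 to 6948, with no overlap. Its receptor gene Cxcr4 stood at 4.03 to 29.1 over all libraries, at 14.7 ± 7.80 in VPA and 15.2 ± 8.11 in VPA_OCA (adjusted p = 0.991).

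Cxcl16 encodes a membrane-bound chemokine of sinusoidal endothelium and macrophages, and CXCR6 is its receptor on liver T, NK and NKT cells. Cxcl16 had a lowest, median and highest value of 130, 157.3 and 228 in VPA and 116, 159 and 176 in VPA_OCA, so that the groups overlapped (log2 fold change -0.11 ± 0.15, adjusted p = 0.891 by limma). The Cxcl16 row overlaps Zmynd15 on the opposite strand (mean 73.8). Cxcr6 had 6.15, 13.3 and 15.1 in VPA and 4.16, 6.36 and 14.5 in VPA_OCA. Apart from VPA replicate 3, every VPA library was at 12.65 or above, and every VPA_OCA library but replicate 6 was at 8.95 or below. The ranges overlapped. The means were 12.6 ± 3.31 and 7.45 ± 3.94. On the log2 scale the fitted difference was -0.75 ± 0.31, which is 1.68-fold lower with OCA. By limma the unadjusted p was 0.0293 and the adjusted p 0.442. Cxcr6 lies inside the span of Fyco1, on the opposite strand, which had a mean of 896. All 10 T cell markers and all 7 NK cell markers were measurable and 0 of them passed, with summed levels of 75.9 to 142 against 87.6 to 131 for T cells and of 59.0 to 118 against 56.6 to 93.4 for NK cells, VPA being given before VPA_OCA. The part of these cells in the Cxcr6 values was not tested.

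The interferon-induced ligands Cxcl9 and Cxcl10 are neighbours on chromosome 5. Their promoters are shown because Cxcl10 held matches to both motifs and Cxcl9 to neither. They have the same window and source as those of Ccl9 and Ccl6, and lie at chr5:92328030-92328329 for Cxcl9 and chr5:92348840-92349139 for Cxcl10, both on the minus strand. Capitals mark matches to the NF-kB consensus or to the interferon-stimulated response element, searched as TTTCNNTTTC on both strands.
Cxcl9 promoter: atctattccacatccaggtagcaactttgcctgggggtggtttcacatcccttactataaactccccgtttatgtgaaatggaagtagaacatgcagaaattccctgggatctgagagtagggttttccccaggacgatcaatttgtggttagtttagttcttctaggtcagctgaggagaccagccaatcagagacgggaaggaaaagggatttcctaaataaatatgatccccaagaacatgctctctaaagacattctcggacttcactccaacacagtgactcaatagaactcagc
Cxcl10 promoter: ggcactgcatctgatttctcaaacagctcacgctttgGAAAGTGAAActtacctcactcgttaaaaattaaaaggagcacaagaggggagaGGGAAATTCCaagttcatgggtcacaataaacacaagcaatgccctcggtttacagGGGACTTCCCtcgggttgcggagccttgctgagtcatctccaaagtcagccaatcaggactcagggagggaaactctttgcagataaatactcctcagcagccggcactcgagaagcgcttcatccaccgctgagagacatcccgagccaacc
Cxcl10 held the response element 213 to 204 bases before the start and NF-kB matches 159 to 150 and 103 to 94 bases before it. Over the 35 RefSeq promoters found for 31 of the measurable members, 7 held the NF-kB consensus (Ccl27a, Ccl9, Ccr6, Cxcl1, Cxcl2, Cxcl3 and Cxcl10) and 3 the response element (Ccl19, Cxcl10 and Cxcl14), while 4.51% and 3.44% of all 32851 promoters of that length did. The inverted repeat that FXR is known to bind (IR-1) was in 0 of the 35 and in 0.0365% of all promoters. A match is a run of letters and not a measured site.

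Cxcl9 ran from 242 to 409 in VPA, with a median of 337.5, and from 259.7 to 374 in VPA_OCA, with a median of 357. The groups covered the same range (log2 fold change 0.03 ± 0.14, 95% interval -0.26 to 0.33, adjusted p = 0.974 by limma). Cxcl10 was at 48.6 ± 7.20 in VPA and 38.1 ± 10.4 in VPA_OCA (log2 fold change -0.37 ± 0.19, adjusted p = 0.574), and it shares part of its span with Art3 on the opposite strand (mean 34.4). Cxcl11, the neighbouring pseudogene row outside the members, was at 82.5 ± 19.3 and 116 ± 32.1 (adjusted p = 0.510). The log2 fold changes of these 3 interferon-induced transcripts thus lay on both sides of 0, and none passed. Their receptor gene Cxcr3 lay at 3.12 to 15.8 over all libraries (adjusted p = 0.932), and in both groups replicates 4 to 6 were above replicates 1 to 3.

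Of 22 interferon-induced genes outside the members, all measurable, 0 passed by limma and 5 had an unadjusted p under 0.05. Among all genes 0.721% passed and 9.55% had such an unadjusted p. Their median log2 fold change was 0.09, with 15 above 0 and 7 below. Psmb9, an immunoproteasome subunit, was at 329 ± 70.9 in VPA and 500.3 ± 65.8 in VPA_OCA (adjusted p = 0.0636). It rose with the term for number sets (limma, adjusted p = 0.0251), where 2.13% of all genes passed. Psmb8, its partner, was at 625 ± 47.8 and 773 ± 129 (adjusted p = 0.327), and Gbp2, a guanylate-binding protein, at 147 ± 16.0 and 190 ± 32.7 (adjusted p = 0.345).

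CXCL1, CXCL2 and CXCL3 recruit neutrophils through CXCR2. Cxcl1 had a lowest, median and highest value of 30.1, 62.4 and 83.6 in VPA and 28.1, 48.7 and 75.5 in VPA_OCA. The groups overlapped (log2 fold change -0.32 ± 0.27, adjusted p = 0.799 by limma). Cxcl2 and Cxcl3 stayed between 0 and 4.17 in every library, and Cxcl5 and Cxcl15 were not measurable. Cxcr2 was at 12.1 ± 2.04 in VPA and 7.90 ± 3.66 in VPA_OCA (log2 fold change -0.70 ± 0.34, adjusted p = 0.537). Of 8 neutrophil markers 7 were measurable and 0 passed, 6 of the 7 had a log2 fold change below 0, and their sums were 59.1 to 119 in VPA and 55.3 to 90.1 in VPA_OCA. The part of neutrophil numbers in the Cxcr2 values was not tested.

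Ligands that place lymphocytes and dendritic cells gave low values. Ccl19 and Ccl21a encode ligands of CCR7, the receptor that leads dendritic cells and naive T cells to lymphoid tissue. Ccl19 lay at 9.44 to 30.8 and Ccl21a at 3.13 to 20.3. The measurable scaffold row of Ccl21c lay at 0 to 20.3. Reads of near-identical copies of Ccl21 cannot be assigned to 1 gene. The 6 Ccl21 rows together gave a lowest, median and highest sum of 5.02, 19.4 and 24.5 in VPA and 3.62, 20.3 and 37.4 in VPA_OCA, with overlapping groups. Ccr7 was at 9.34 ± 5.49 in VPA and 13.6 ± 2.86 in VPA_OCA (log2 fold change 0.61 ± 0.30, adjusted p = 0.543 by limma). Cxcl13, which draws B cells to follicles through CXCR5, lay at 3.69 to 22.1 and Cxcr5 at 3.69 to 12.5. Cxcr5 overlaps Bcl9l on the opposite strand (mean 910). The Cxcl13 fold change was 1.05 ± 0.39 within replicates 1 to 3 and -1.09 ± 0.43 within replicates 4 to 6 on the log2 scale, and the difference of these effects did not pass over all genes (interaction term in limma, adjusted p = 0.376). Xcl1 of NK and T cells lay at 1.01 to 5.59, and Xcr1, its receptor on cross-presenting dendritic cells, at 6.96 ± 2.12 in VPA and 4.33 ± 2.45 in VPA_OCA (log2 fold change -0.65 ± 0.32, adjusted p = 0.560).

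All 7 dendritic cell markers were measurable, 0 passed, and they summed to 202 to 259 in VPA and 173 to 236 in VPA_OCA. Clec9a, a marker of the dendritic cells that carry XCR1, was at 55.9 ± 14.96 and 40.4 ± 1.73 (limma, adjusted p = 0.464), and Flt3, a growth factor receptor of dendritic cells, at 6.79 ± 2.73 and 3.12 ± 2.41 (adjusted p = 0.424). Over the whole marker list 3 log2 fold changes were above 0 and 4 below, with a median of -0.09. The part of dendritic cell numbers in the Xcr1 values was not tested. The 6 B cell markers were measurable and 0 passed, with sums of 224 to 534 in VPA and 271 to 484 in VPA_OCA.

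Epithelial and other homeostatic ligands made up the rest. Ccl27a had a lowest, median and highest value of 182, 243 and 286 in VPA and 190, 236 and 310 in VPA_OCA, with overlapping groups (log2 fold change -0.04 ± 0.14, adjusted p = 0.972 by limma). CCL27 is best known as a skin chemokine that binds CCR10. The Ccl27a row shares part of its span with Il11ra1 on the opposite strand (mean 1229.7). Without strand, reads in the shared part could come from either gene, and whether the exons overlap was not examined. Ccl25, which draws gut-homing lymphocytes through CCR9, had 54.4, 80.05 and 94.7 in VPA and 56.9, 69.3 and 74.0 in VPA_OCA (log2 fold change -0.11 ± 0.16, adjusted p = 0.908). It overlaps Elavl1 (mean 447) on the opposite strand. Ccr9 lay at 5.19 to 9.66 inside a span shared with Lztfl1. Cxcl14, a ligand of epithelia and stroma, was at 16.5 ± 5.98 in VPA and 24.1 ± 8.87 in VPA_OCA (adjusted p = 0.648).

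Ccl24, or eotaxin-2, recruits eosinophils through CCR3 and is made by macrophages. It was at 34.6 ± 14.0 in VPA and 24.2 ± 14.6 in VPA_OCA (log2 fold change -0.56 ± 0.34, adjusted p = 0.686 by limma). Its values separated by replicate number in both groups, at 17.2 to 28.1 against 42.2 to 50.4 in VPA and 12.9 to 18.7 against 20.55 to 51.9 in VPA_OCA. Ccl17 and Ccl22, ligands of CCR4 on regulatory and type 2 T cells, stayed at 0 to 5.201 and 1.05 to 10.4. Ccl28, a mucosal ligand, lay at 0 to 7.64 and Ccr6 at 0 to 3.16. Cx3cl1, or fractalkine, lay at 4.47 to 20.4 and its receptor gene Cx3cr1 at 5.03 to 20.8 (adjusted p-values of 0.958 and 0.932). Among other rows, Cx3cr1 overlaps Wdr48 on the opposite strand (mean 498) and Gorasp1 on its own strand (mean 628). In all, 13 of the 41 measurable members overlap another row on the opposite strand and 2 of these, Ccr9 and Cx3cr1, also a row on their own strand.

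The direction of the fold change was the same within replicates 1 to 3 and within replicates 4 to 6 for 21 of 41 members (51.2%) and for 55.3% of all genes. Apart from Ccl9 no member passed within either set, and 0.5% of all genes passed within replicates 4 to 6. In VPA_OCA the sets did not overlap for Ccl9, Ccr7, Ccl2, Ccl3 and Ccl5, in VPA for Cxcl12, Cxcl16, Cxcr4 and Cxcl13, and in both groups for Ccl24 and Cxcr3, among others. In all this held for 7 of 41 members in VPA (17.1%, against 30.8% of all genes) and for 8 of 41 in VPA_OCA (19.5%, against 32.3%). Over all members the median log2 fold change was -0.03 in replicates 1 to 3 and 0.10 in replicates 4 to 6.

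**Figure D4:**
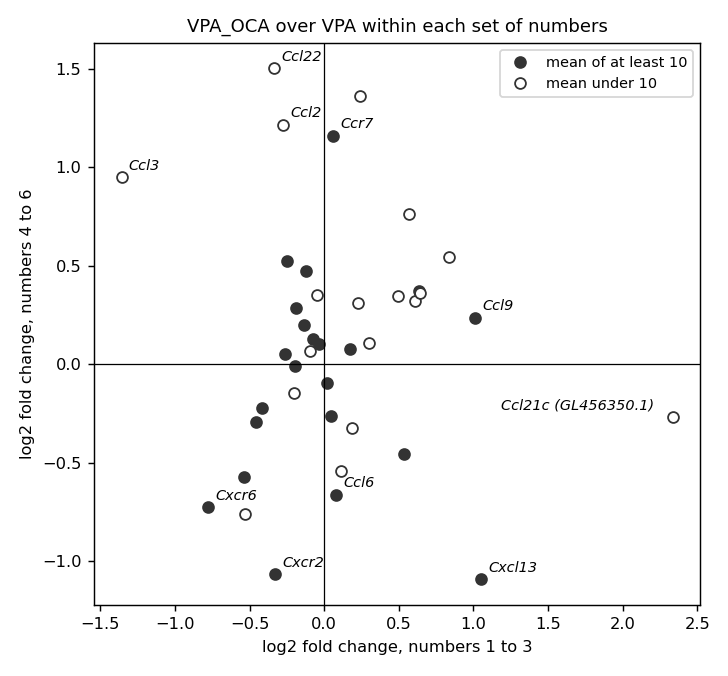
Log2 fold change of VPA_OCA over VPA of measurable members within replicates 1 to 3 (horizontal axis) and within replicates 4 to 6 (vertical axis), on the scale of log2(normalized count + 1), for 40 members. Open points are members with a mean under 10. Points lie in all quadrants, and Ccl9 lies at 1.01 and 0.24.

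The genes around the chemokines gave few calls as well. Of 8 chemokines and receptors that the rule does not name (Pf4, Ppbp, Cklf, Ackr1 to Ackr4 and Ccrl2), all measurable, 0 passed and 0 had an unadjusted p under 0.05. Cklf, a chemokine-like factor, was at 14.1 ± 2.83 in VPA and 11.04 ± 3.11 in VPA_OCA (adjusted p = 0.736 by limma). Of 17 genes of receptor signalling (inhibitory G proteins, arrestins, receptor kinases, RGS proteins and the RAC2 pathway) 0 passed. Their log2 fold changes were above 0 for 3 and below for 14, with a median of -0.08. That median was -0.12 within replicates 1 to 3 and 0.002 within replicates 4 to 6. An unadjusted p under 0.05 was found for 2 of the 17, and for 9.55% of all genes. Those 2 were Gnai3, an inhibitory G protein subunit, at 1518.7 ± 196 and 1303 ± 63.4 (adjusted p = 0.446), and Arrb1, an arrestin that ends receptor signalling, at 228 ± 33.7 and 188 ± 23.5 (adjusted p = 0.497).

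Of 14 NF-kB induced inflammatory genes 11 were measurable, 0 passed and 2 had an unadjusted p under 0.05, against 9.55% of all genes. Vcam1, an adhesion molecule to which leukocytes bind on activated endothelium, was at 379 ± 106 in VPA and 243 ± 44.8 in VPA_OCA (adjusted p = 0.117 by limma). Nfkbie, an inhibitor of NF-kB, was at 35.7 ± 11.9 and 51.1 ± 7.996 (adjusted p = 0.358). Their values thus went in opposite directions, and the list's median log2 fold change was -0.01.

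Among the other cell types of liver, all 10 sinusoidal endothelial markers had a log2 fold change below 0, with a median of -0.26 and sums of 4515 to 7623 in VPA and 4276 to 6028 in VPA_OCA. Their median was 0.06 within replicates 1 to 3 and -0.59 within replicates 4 to 6. None passed by limma, and 1 had an unadjusted p under 0.05, against 9.55% of all genes. Lyve1 fell with the term for number sets (limma, adjusted p = 0.0314), where 2.13% of all genes passed. Of 8 stellate, 4 platelet and 10 Kupffer cell markers 0 passed and 0 had an unadjusted p under 0.05. Of 6 cholangiocyte markers 1 rose, Cdh1, an epithelial cadherin, from 244 ± 35.4 to 583 ± 251 (limma, adjusted p = 0.0368), where 0.442% of all genes rose. The other 5 did not pass, and the list had 4 log2 fold changes above 0 and 2 below, with a median of 0.08. Skeletal muscle transcripts summed to 491 and 115 in VPA replicates 4 and 5 and to at most 29.0 in the other libraries. Ccl9 was at 1754 and 1522 in those libraries. Without both of them its log2 fold change was 0.58 (adjusted p = 0.303), and again 0 members passed.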

How the data were processed

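RNA sequencing of 12 livers (TruSeq libraries from total RNA, per the labels' protocols) was analysed from 1 deposited table. The submitters' processing notes name edgeR and the build GRCm38.p5. The submitters' aligner, counter and strand setting are each not given in the sources used here. The deposited normalized counts (a signal per gene, per the file headers) are not whole multiples of 1 read (79.6% to 84.6% of low values lay within 0.1 of one), so no count model was used. The authors' FPKM, p-values, adjusted p-values, log2 ratios and GC fraction per gene are in the same deposited table, and the GC fraction was not used in any test. Where a cell combined a decimal comma with an exponent, its value was divided by 1000 (238 p-values, 88 adjusted p-values, 10536 log2 ratios and 89 normalized counts, of which 0 belong to members). Adjusted p-values recomputed from the authors' p-values then differed from theirs by at most 0.538%.

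Groups and replicate numbers come from the sample titles. Log2(value + 1) was tested in R 4.3.3 by limma 3.58.1 (2-sided, intensity trend, empirical Bayes, Benjamini-Hochberg), after a check on simulated data. The simulated libraries were independent and had no sets of replicate numbers, so that check cannot show how the fit behaves with such sets. The members were chosen by name, and the gene lists were written with earlier results of these data known. Every measurable member is named except 1, which is not reported here but is counted in the totals, with values by group where its mean was at least 50 or its unadjusted p under 0.05, and up to 3 genes of each list by p. Same-numbered libraries deviated together (correlations of 0.150 to 0.478 over 11481 genes), which comes from the data and not from the labels. Only 4 libraries correlated best with the library of their own number, so pairing by number was not established. The block for replicate number is therefore given only as an alternative. The 30 pairs of libraries within groups differed by 19.4 to 229 times sampling variance, and none was treated as a duplicate. Promoters came from RefSeq (GRCm38.p6). Protein sequences were not used here. Figures were drawn with matplotlib 3.10.9. Alternatives were other scalings, filters, pseudocounts (0.1 and 5), FPKM, limma without trend or with array weights, thresholds of 0.10 and 0.01, the block, a term for replicates 1 to 3 against 4 to 6, each set alone, each library left out and VPA replicates 4 and 5 (muscle transcripts) left out together. The interaction and the leaving out of libraries under the term and within replicates 1 to 3 were added after seeing the data.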

Additional observations from a re-analysis of the deposited data

Results flagged for a closer look

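In 6 of the 82 sets of 6 values examined (41 members in each of 2 groups) 1 library stood apart from the rest of its group. The rule used marks about 1 in 20 sets when values are independent and normally distributed. Low counts and sets that share libraries do not meet this, so the 6 cannot be set against a chance rate. In VPA, Ccl5 was 56.4 in replicate 4 (the next value was 32.0), Ccl7 was 3.02 in replicate 4 (next 1.003), Ccr7 was 20 in replicate 2 (next 9.35) and Cxcr6 was 6.15 in replicate 3 (next 12.65). In VPA_OCA, Cxcl2 was 4.17 in replicate 3 (next 1.08) and Cxcl13 was 4.33 in replicate 4 (next 11.8). VPA replicate 4 is also the library with the highest sum of Kupffer cell markers, 14026. The sums of monocyte, neutrophil, dendritic cell, T cell, NK cell, platelet and skeletal muscle markers were highest in that library too. Values of about 1 to 4 normalized counts stand for a few reads.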

How the results depend on the processing

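Of 1089 member values under the alternatives 1087 kept their side of the threshold, and the other 2 are Ccl9 with the term for number sets (log2 fold change 0.62, adjusted p = 0.0226) and within replicates 1 to 3 (1.01, 0.0123), where 1 member passed, higher, in place of 0. The authors' own test, which is not among these alternatives, also put Ccl9 under 0.05 (adjusted p = 0.001918 by that test). The block for the replicate number changed no member's call, but 210 genes passed, 129 higher and 81 lower, in place of 137, 84 and 53. With the term 404 passed (254 higher, 150 lower). At a threshold of 0.10 the counts were 223, 141 and 82, and at 0.01 they were 62, 46 and 16. Fewer genes were lower without the intensity trend (26) and within replicates 4 to 6 (29). Leaving out each library in turn gave 92 to 146 genes, 63 to 97 higher and 28 to 49 lower, with 0 to 0 members, total, higher or lower. The cause of these shifts was not tested. With a mean of at least 10 required, 23 members were measurable in place of 41. No scaling, pseudocount or use of FPKM turned the direction of any of the 41 members, but leaving out 1 library turned that of 16, none of them with an adjusted p under 0.822 there. Fitting with array weights turned Cxcr4 and Ccl21a, while fitting without trend leaves the fold changes as they are. Without VPA replicates 4 and 5 together 155 genes and 0 members passed, Cxcl16 turned from -0.11 to 0.06, Ccl24 moved from -0.56 to -0.26 and Ccr1 from 0.80 to 0.25. Apart from fits within 1 set of numbers, 17 members turned under at least 1 alternative. Low counts limit 18 members with means under 10, whose intervals mostly reach a 2-fold change.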
